A study of Mus musculus with 11 samples.

Results

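Genes that build, join and divide mitochondria were examined in whole mouse hearts: the regulators of mitochondrial biogenesis Ppargc1a, Ppargc1b, Tfam and Nrf1, the fusion genes Mfn1, Mfn2 and Opa1, and the fission genes Dnm1l, Fis1 and Mff. The 10 genes were chosen by name, out of 35584 genes in the table of normalised counts and 33318 in the table of normalised TPM, and all 10 were present in both tables and passed the minimum for testing. RNA from 11 libraries was sequenced after polyA selection, from hearts of male mice aged 8 to 12 weeks. WT hearts (n = 3) and Macrophage-depleted hearts (n = 3) came from mice injected with diphtheria toxin at 0.01 µg per g, 3 times a week for 3 weeks. Macrophage-depleted mice also carried CD169-DTR, a diphtheria toxin receptor expressed from the locus of CD169 (Siglec1), so that toxin removes cells that use this locus, and depletion lasted 21 days. Mertk-KO hearts (n = 2) are labelled as lacking Mertk, a receptor with which macrophages take up dying cells and cell debris. LXR-DKO hearts (n = 3) are labelled as lacking LXRalpha and LXRbeta, nuclear receptors that respond to oxidised cholesterol. The labels do not say whether Mertk-KO and LXR-DKO mice received toxin, so genotype and toxin cannot be told apart in their comparisons with WT, nor can depletion and the CD169-DTR allele. Whether replicates are different mice is not stated, so a p-value here reflects how much these libraries vary, which may be technical variation.

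Ppargc1a and Ppargc1b encode PGC-1alpha and PGC-1beta, coactivators that join transcription factors such as NRF1 and raise the transcription of nuclear genes for mitochondrial proteins, among them Tfam, whose product packs and transcribes mitochondrial DNA. Mitochondria also fuse and divide: the mitofusins Mfn1 and Mfn2 join outer membranes, Opa1 joins inner membranes and shapes cristae, and the dynamin Dnm1l, recruited to the outer membrane by adaptors such as Mff and Fis1, cuts mitochondria apart. Heart muscle holds densely packed mitochondria and is known to depend on both processes. The series asked, as far as its labels show, what heart tissue expresses when its macrophages are removed or when Mertk or the liver X receptors are missing.

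The promoters of 9 of the 10 genes (all but Ppargc1b) were read from RefSeq (GRCm38.p6) to see which of them hold binding motifs of the biogenesis factors. NRF1 binds a palindrome made of GCGCA followed by its reverse complement, and GABP, an ETS factor that also drives nuclear mitochondrial genes, binds CCGGAAGT. Within the 250 bases before the start of transcription, on both strands, the palindrome occurred in 0.782% of 32851 mouse promoters and, among the 15 promoter windows of these 9 genes, in 1 of Opa1. The ETS letters occurred in 2.88% of all promoters and in 3 of the 15 windows, 1 each of Tfam, Mfn1 and Fis1. The 4 stretches that hold a match are shown 5′ to 3′ on the strand of the gene, with the motif in capitals. Those of Opa1 and Fis1 end at the base before the RefSeq start. That of Mfn1 ends before the first GENCODE exon, which begins a little upstream of the RefSeq start. Of Tfam 30 bases around the motif are shown, which lie before the RefSeq start but inside an exon of the GENCODE annotation, whose gene start is further upstream.
Opa1, chr16:29579234-29579333, plus strand: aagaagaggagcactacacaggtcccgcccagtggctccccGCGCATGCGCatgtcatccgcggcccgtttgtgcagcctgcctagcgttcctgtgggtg
Tfam, chr10:71238073-71238102, minus strand: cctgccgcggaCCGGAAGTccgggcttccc
Mfn1, chr3:32529365-32529464, plus strand: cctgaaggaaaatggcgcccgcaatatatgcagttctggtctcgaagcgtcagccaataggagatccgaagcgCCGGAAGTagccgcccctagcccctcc
Fis1, chr5:136953175-136953274, plus strand: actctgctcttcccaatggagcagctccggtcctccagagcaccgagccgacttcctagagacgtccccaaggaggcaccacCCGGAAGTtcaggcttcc
Counted from the RefSeq start, the palindrome lay 59 to 50 bases before that of Opa1. The ETS letters lay 47 to 40 bases before the RefSeq start of Tfam, 44 to 37 before that of Mfn1 and 18 to 11 before that of Fis1. The estrogen-related receptor motif TCAAGGTCA, the LXR motif of AGGTCA repeated after any 4 bases, and the cyclic AMP motif TGACGTCA, held by 0.387%, 0.0152% and 1.55% of all promoters, were not found in these windows. A match describes letters in a window and does not show that a factor was bound in these hearts.

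The libraries held 10938600 to 20722295 estimated reads, and 31.4% to 36.5% of the reads came from the mitochondrial genome. A normalised count is a gene's estimated reads after scaling each library to the same effective size, and 0 reads in a library would still allow up to 2.12 to 4.22 normalised counts depending on the library. The targeted genes gave a check of the labels. Siglec1 was at 64.3, 55.3 and 53.4 normalised counts in WT and at 33.8, 2.12 and 0.719 in Macrophage-depleted hearts, so the first Macrophage-depleted library kept more of it than the others. Mertk was at 131, 147 and 129.9 normalised counts in WT and still at 75.7 and 89.4 in Mertk-KO hearts, and gene totals do not show which exons these reads came from. The genes of the liver X receptors, Nr1h3 and Nr1h2, were at 25.9 to 29.0 and 85.2 to 99.6 normalised counts in LXR-DKO, below 155 to 173 and 525 to 543 in WT. The Mertk-KO libraries were the least alike of any replicate pair, with a correlation of log values across genes of 0.959 against 0.976 to 0.987 elsewhere.

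Per transcript length, the mitofusins stood highest and Nrf1 lowest in WT hearts. On the normalised TPM scale, which divides reads by length, Mfn2 was at 248 ± 7.38 (SD, n = 3) and Mfn1 at 164 ± 3.59, at the 97.3th and 96.1th percentile of the genes with at least 1 TPM. Fis1 followed at 92.3 ± 5.63 and Mff at 91.1 ± 6.03, and their WT libraries overlapped. Opa1 was at 59.1 ± 2.12, Dnm1l at 40.9 ± 1.47 and Tfam at 37.6 ± 8.25, the last pair overlapping in WT. The coactivators were scarcer, with Ppargc1a at 19.4 ± 0.513 and Ppargc1b at 8.26 ± 1.76, and Nrf1 was at 4.91 ± 0.801. Each gene of this order exceeded the next in all 11 libraries, except that Fis1 exceeded Mff, Dnm1l exceeded Tfam and Ppargc1b exceeded Nrf1 in 9 of 11.

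**Figure D1:**
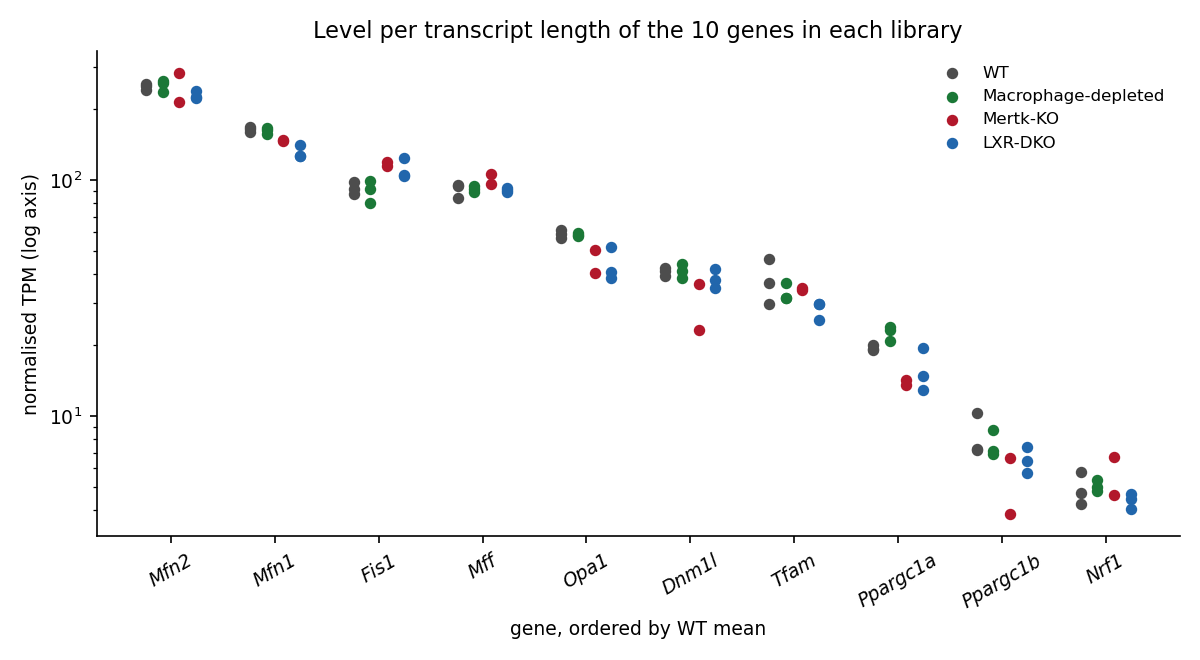
Normalised TPM of the 10 genes in each of the 11 libraries (points, coloured by group) on a log axis, ordered by the WT mean. Mfn2 (248 in WT) is the highest and Nrf1 (4.91 in WT) the lowest, and 1 of the 2 Mertk-KO points of Dnm1l (23.2) lies well under its WT points while the other (36.1) is close to them.

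Ratios of these levels, computed after the values were seen and given as a description, compared the 2 arms of the cycle. The summed TPM of the fusion genes over that of the fission genes was 1.99 to 2.22 in WT and 2.06 to 2.15 in Macrophage-depleted hearts. It was 1.60 and 1.97 in Mertk-KO and 1.54 to 1.83 in LXR-DKO, so that these 5 libraries all lay under the WT range. With normalised counts in place of TPM the LXR-DKO libraries, at 4.61 to 4.87, were again under WT at 5.12 to 5.29, but the Mertk-KO libraries were at 6.79 and 4.57, on either side of it. Fis1 over Dnm1l in TPM was 2.17 to 2.38 in WT, 1.94 to 2.60 in Macrophage-depleted, 3.31 and 4.95 in Mertk-KO and 2.51 to 3.57 in LXR-DKO hearts. With normalised counts the Mertk-KO and LXR-DKO libraries were also above WT, at 0.534 and 0.783 and at 0.400 to 0.577 against 0.351 to 0.374. Mfn2 over Mfn1 in TPM was 1.46 to 1.56 in WT, 1.44 to 1.68 in Macrophage-depleted, 1.46 and 1.94 in Mertk-KO and 1.68 to 1.77 in LXR-DKO hearts. With normalised counts its LXR-DKO values of 2.39 to 2.44 lay within the WT values of 2.32 to 2.47.

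Removal of macrophages was compared with WT to ask whether the heart's mitochondrial upkeep genes follow its macrophage content. None of the 10 genes passed the test in Macrophage-depleted hearts (limma, log2(normalised count + 1), Benjamini-Hochberg adjusted p under 0.05 over 13884 genes), and none had an unadjusted p under 0.05. Over all genes tested, 0.238% passed and 7.53% had an unadjusted p under 0.05. The log2 fold changes ran from -0.12 (Nrf1) to 0.18 (Ppargc1a), the limma adjusted p from 0.845 to 0.999, and the 95% intervals together from -0.43 to 0.43, which is 0.743-fold to 1.35-fold. The summed level of 12 macrophage markers, among them Csf1r, Adgre1 and C1qa, was 729 to 2125 normalised counts in these hearts against 3001 to 3451 in WT, all 12 having lower estimates and 2 passing the test. Adipocyte markers summed to 23.1 to 38.4 against 83.9 to 187. Of these, Ucp1 was under 1 read in every library of both groups, and Lep in every WT library. The 7 endothelial markers summed to 10442 to 11246 against 11918.5 to 12912. The 5 erythroid markers summed to 3302 to 4862 against 4994 to 8508, all with lower estimates. No adipocyte, endothelial or erythroid marker passed. The part of these in the values of the 10 genes was not tested. In whole tissue, fewer cells of a type and less RNA per cell cannot be told apart.

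Ppargc1a (ENSMUSG00000029167, GRCm38 chr5:51454250-51567726, minus strand) was at 1366, 1244 and 1225 normalised counts in WT and at 1447, 1406 and 1493 in Macrophage-depleted hearts. All 3 Macrophage-depleted libraries were above the highest WT library, a separation upward that 8.51% of all genes also showed. The difference was 0.18 on the log2 scale (SE 0.11, 95% interval -0.07 to 0.43, limma adjusted p = 0.845), and it did not pass the test.

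The outer membrane fusion gene Mfn1 (ENSMUSG00000027668, chr3:32529465-32579239, plus strand) was at 5221, 5227 and 5126 normalised counts in WT and at 4912, 4786 and 4838 in Macrophage-depleted hearts. Its Macrophage-depleted libraries lay below every WT library, as for 8.15% of all genes, with a log2 difference of -0.10 (SE 0.06, limma adjusted p = 0.858). On the TPM scale the groups overlapped, at 160.2, 164 and 167 in WT and 157, 163 and 166 after depletion. In the other 8 genes the libraries of the groups overlapped. Ppargc1b (ENSMUSG00000033871, chromosome 18, minus strand), for example, was at 319, 289 and 408 normalised counts in WT and at 381, 298 and 322 after depletion, with the widest interval of the 10 genes, -0.43 to 0.41.

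**Figure D2:**
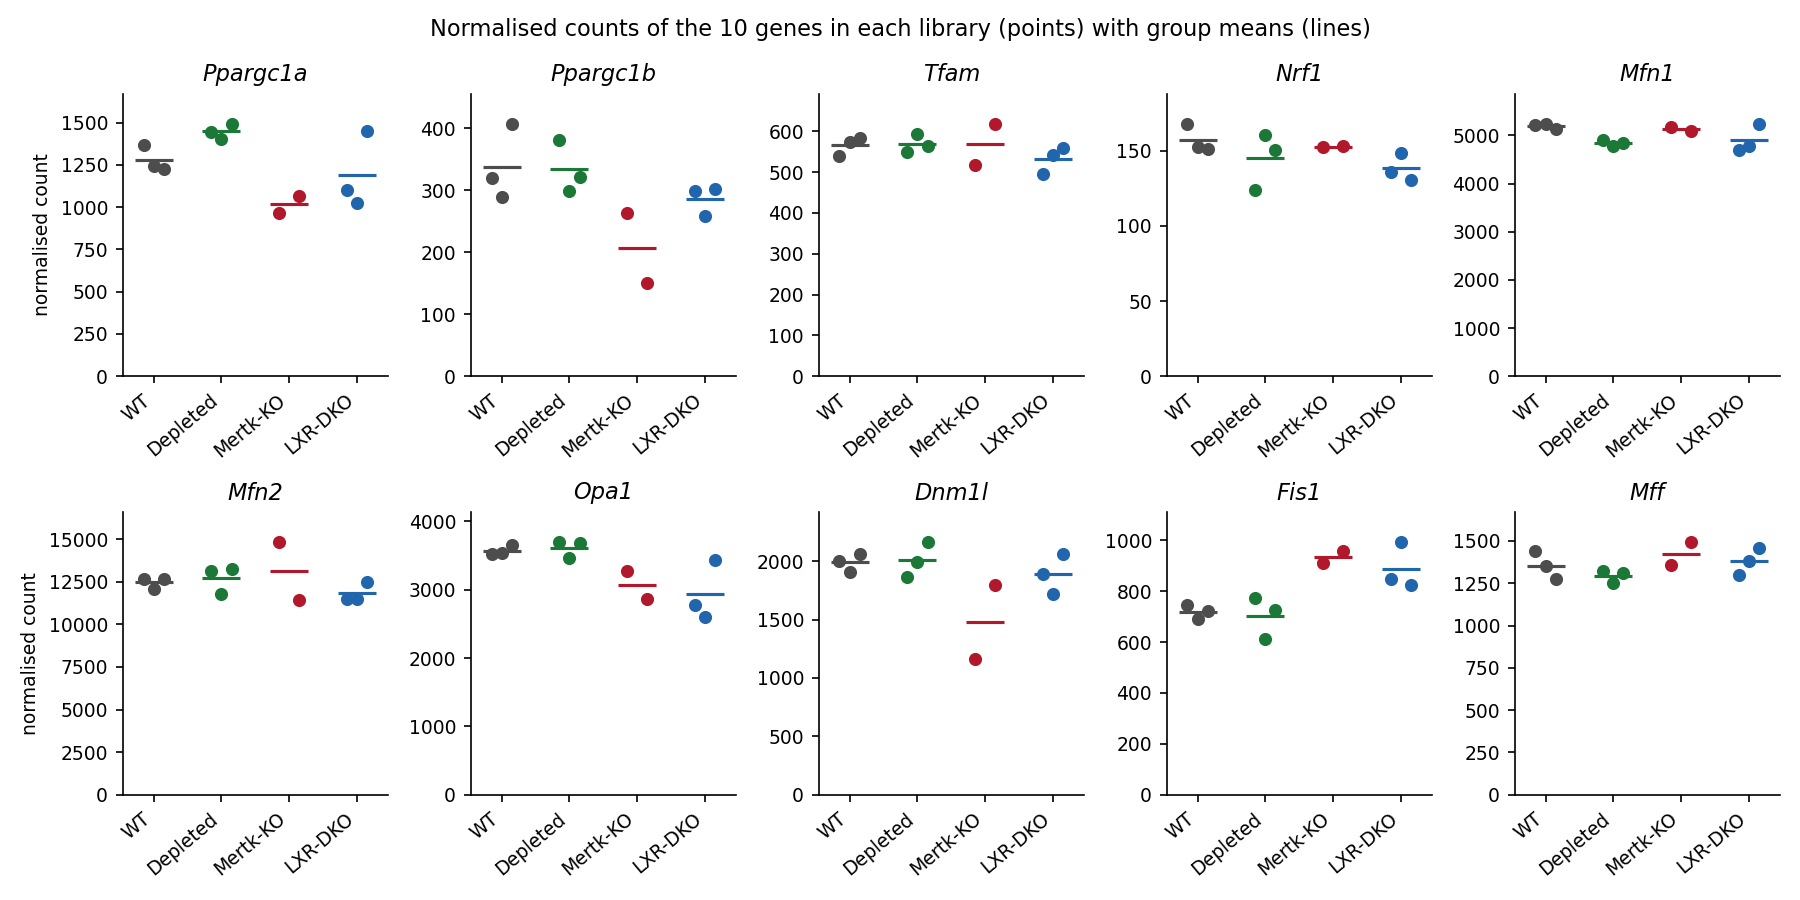
Normalised count of each of the 10 genes in every library (points), with the group means (lines), by group and on axes from 0. Macrophage-depleted points sit among or close to the WT points, while Ppargc1a, Ppargc1b, Opa1 and Dnm1l are lower and Fis1 is higher in both Mertk-KO libraries than in any WT library.

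In Mertk-KO hearts Ppargc1b fell to 0.594 of its WT level, and it was the only one of the 10 genes past the threshold, against 9.27% of all genes tested. Dnm1l, Ppargc1a and Opa1 had lower estimates and Fis1 a higher one, without passing. The Mertk-KO libraries did not overlap the WT libraries in 5 of the 10 genes, 4 lower and 1 higher, against 21.1% of all genes lower and 21.4% higher. Unadjusted p-values under 0.05 were found for 4 of the 10 genes and for 28.6% of all genes. The median log2 difference of the 10 genes was -0.03, against -0.01 over all genes tested.

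Among the coactivators, Ppargc1b was at 319, 289 and 408 normalised counts in WT and at 263 and 149.8 in Mertk-KO. The second Mertk-KO library was the lowest of all 11, and the first was close to the LXR-DKO libraries at 298, 258 and 302. The log2 difference from WT was -0.75 (SE 0.21, 95% interval -1.22 to -0.29, limma adjusted p = 0.0487). Without the second Mertk-KO library it was -0.35 (limma adjusted p = 0.226), and without the first it was -1.16 (limma adjusted p = 0.00404). Leaving out any of the other 9 libraries also lost the call, with a limma adjusted p between 0.0568 and 0.140, and the call held in 5 of 23 alternatives. Ppargc1a was at 964 and 1068 normalised counts in Mertk-KO, below the lowest WT library at 1225, with a log2 difference of -0.33 (SE 0.13, limma adjusted p = 0.111). Over the alternatives its limma adjusted p ran from 0.0397, without the third LXR-DKO library, to 0.638.

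The targets and partners of the coactivators gave other values. Tfam (ENSMUSG00000003923, chr10:71225464-71238280, minus strand) was at 539, 573 and 585 normalised counts in WT and at 518 and 619 in Mertk-KO, spanning the WT range. Its log2 difference was 0.00 with a 95% interval of -0.21 to 0.22. Nrf1 (ENSMUSG00000058440, chr6:30047988-30153458, plus strand) was at 168, 153 and 151 normalised counts in WT and at 153 and 153 in Mertk-KO, with an interval of -0.33 to 0.26.

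Of the fusion genes, Opa1 (ENSMUSG00000038084, chr16:29579334-29654884, plus strand) was at 3530, 3537 and 3654 normalised counts in WT and at 3275 and 2871 in Mertk-KO. Both Mertk-KO libraries were lower, with a log2 difference of -0.22 (SE 0.11, limma adjusted p = 0.203). Mfn1 was at 5177 and 5089.7 normalised counts, near its WT values, and its interval of -0.17 to 0.14 was the narrowest of the 10 genes. Mfn2 (ENSMUSG00000029020, chr4:147873599-147904704, minus strand) was at 14824 and 11417 in Mertk-KO against 12679, 12108 and 12652.5 in WT, so that the Mertk-KO pair lay on either side of WT.

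The fission genes differed from each other in direction. Dnm1l (ENSMUSG00000022789, chr16:16312230-16358959, minus strand), the dynamin that does the cutting, was at 1998, 1911 and 2058 normalised counts in WT and at 1163 and 1794 in Mertk-KO. The first Mertk-KO library was far below all others, and the second lay within the LXR-DKO range of 1719.9 to 2062. The log2 difference was -0.46 (SE 0.15, limma adjusted p = 0.0690), and it was -0.77 (limma adjusted p = 0.000500) without the second Mertk-KO library and -0.15 (limma adjusted p = 0.423) without the first. Ppargc1b and Dnm1l were thus each lowest in a different Mertk-KO library.

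Fis1 (ENSMUSG00000019054, chr5:136953275-136966234, plus strand), an outer membrane adaptor, was at 746, 690.0 and 722 normalised counts in WT and at 911 and 958 in Mertk-KO. Both Mertk-KO libraries were above WT and close to each other, and the log2 difference was 0.38 (SE 0.11, 95% interval 0.13 to 0.62, limma adjusted p = 0.0550). Without the second Macrophage-depleted or the second LXR-DKO library, which enter only through the shared spread, the limma adjusted p was 0.0419 and 0.0477, and the range over the alternatives was 0.0419 to 0.368. Mff (ENSMUSG00000026150, chr1:82724890-82752394, plus strand), the other adaptor, was at 1439, 1350.4 and 1274 normalised counts in WT and at 1357 and 1492 in Mertk-KO, with a log2 interval of -0.11 to 0.26.

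Other features moved with the Mertk-KO group. In those libraries the log2 difference of a gene from the WT mean (for a WT library, from the mean of the other WT libraries) fell with its transcript length, with a Spearman correlation across genes of -0.255 and -0.50, against -0.0228 to 0.0275 in WT. LXR-DKO libraries had values of -0.250, -0.374 and -0.142 and Macrophage-depleted libraries -0.0365, 0.224 and 0.0604. Fis1, with a longest transcript of 948 bases, is shorter than most of the tested genes (median 3381 bases), and Ppargc1a (6464 bases) and Opa1 (6230 bases) are longer. When each library's length trend was removed, the Mertk-KO difference of Fis1 was 0.14 instead of 0.38, that of Ppargc1a -0.11 instead of -0.33 and that of Opa1 -0.01 instead of -0.22. Ppargc1b (3656 bases) stayed at -0.73 (limma adjusted p = 0.0975) and Dnm1l (3966 bases) at -0.41 (limma adjusted p = 0.134), and none of the 10 genes passed. The ratios of fusion to fission genes and of Fis1 to Dnm1l given above set transcripts of unlike length against each other. Those ratios were not computed with the length trend removed.

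**Figure D3:**
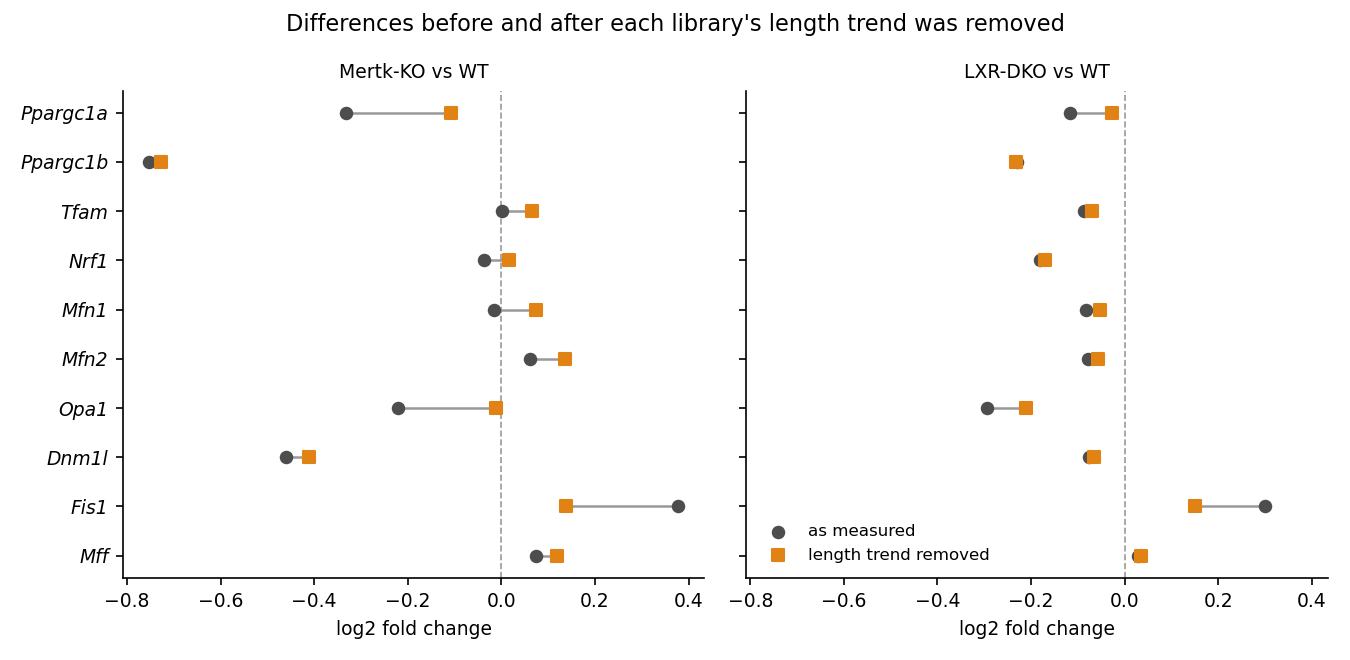
Log2 fold change of each of the 10 genes against WT as measured (dark circles) and once the trend with transcript length had been taken out of each library (orange squares), for Mertk-KO and LXR-DKO. The Mertk-KO values of Ppargc1a, Opa1 and Fis1 move towards 0, while Ppargc1b stays at -0.73 and Dnm1l at -0.41.

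Marker sums also differed in the Mertk-KO group. The 10 immediate early genes summed to 5744 and 6790 normalised counts against 1804 to 5356 in WT, with higher estimates in all 10 and 3 passing. Atrial muscle markers summed to 1746 and 3199 against 3696 to 26327, and the 12 macrophage markers to 3518 and 4869 against 3001 to 3451. The 7 skeletal muscle markers, of which Acta1 and Ckm are also made by heart muscle, summed to 36719 and 44373 against 24560 to 26442. Only 2 of the 7 reached the minimum mean of 10 for testing, and both passed. The sum therefore came almost wholly from these 2, and Myh1 was under 1 read in both Mertk-KO libraries. The sum of the 8 cardiomyocyte markers was 825544 and 927620 normalised counts in Mertk-KO against 817597 to 888042 in WT. The part of any of these in the values of Ppargc1b, Dnm1l and Fis1 was not tested.

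**Figure D4:**
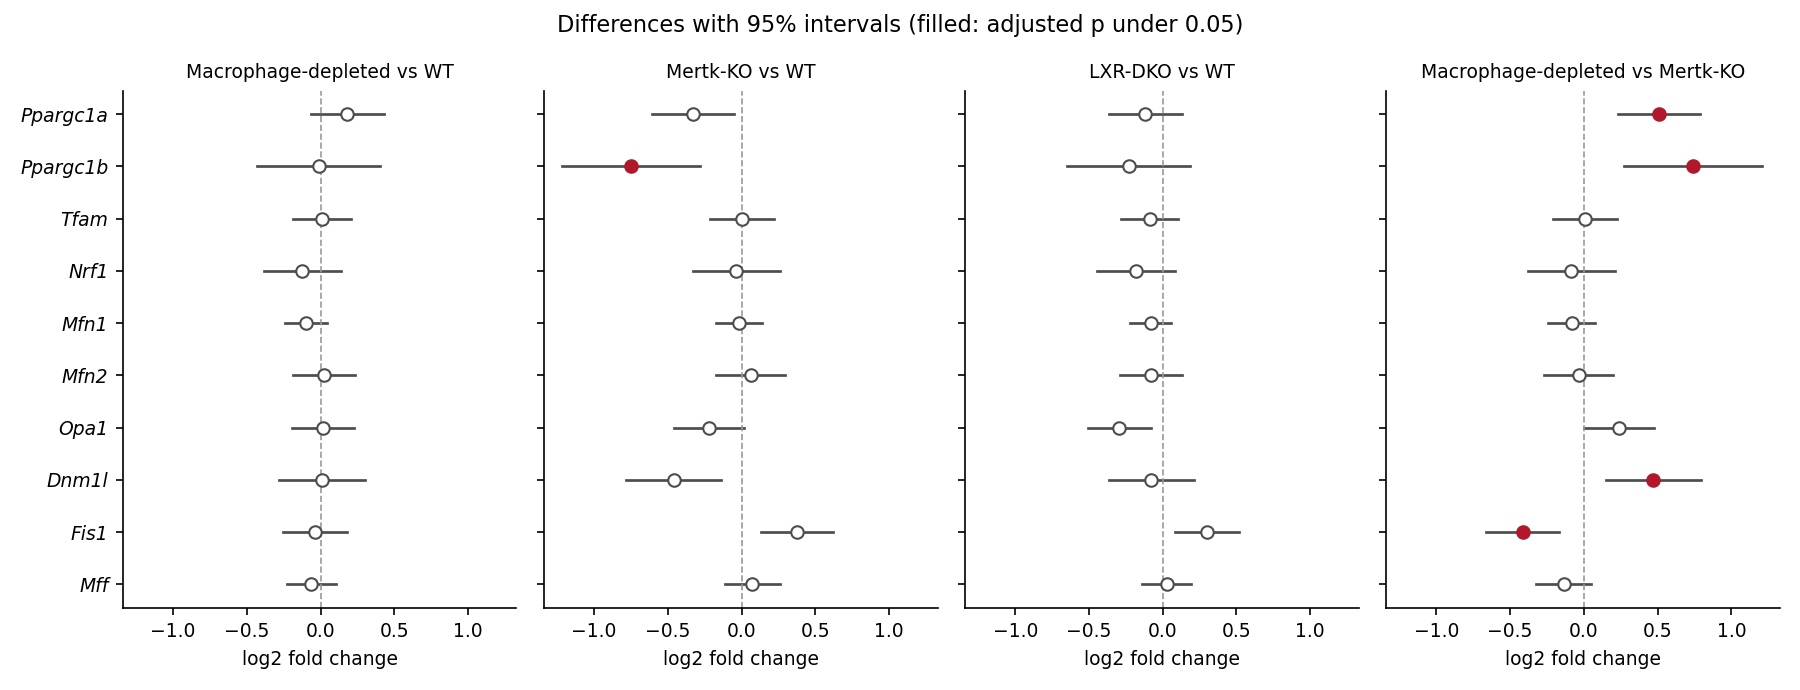
Log2 fold change of each of the 10 genes with its 95% interval in 4 comparisons, filled red where the adjusted p was under 0.05. Ppargc1b is filled in Mertk-KO against WT, and Ppargc1a, Ppargc1b, Dnm1l and Fis1 are filled in Macrophage-depleted against Mertk-KO.

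Loss of the liver X receptors was compared with WT in the same model. None of the 10 genes passed (limma, adjusted p under 0.05), against 0.418% of all genes, and 2 had an unadjusted p under 0.05 against 11.5% of all genes. These were Opa1 and Fis1. The estimates were lower than WT for 8 of the 10 genes, where 50.2% of all genes had higher ones. All 4 biogenesis regulators were among the 8, none of them with an unadjusted p under 0.05. The median log2 difference of the 10 genes was -0.09 against 0.00 over all genes.

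Opa1 was at 2770.0, 2607 and 3429 normalised counts in LXR-DKO, all below the WT libraries, with the third close to them. The log2 difference was -0.29 (SE 0.10, 95% interval -0.51 to -0.08, limma adjusted p = 0.312). With weights that let each library have its own spread it was -0.33 (limma adjusted p = 0.0207), and over the alternatives the limma adjusted p ran from 0.0207 to 0.861. Fis1 was at 849, 992 and 824 normalised counts in LXR-DKO, all above WT, with a log2 difference of 0.30 (SE 0.10, limma adjusted p = 0.317). Libraries that did not overlap WT were seen higher for Fis1 and lower for Opa1 and Nrf1, against 12.0% and 10.7% of all genes. With the length trend removed, the difference was -0.21 for Opa1 and 0.15 for Fis1.

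Mfn1 gave different values on the 2 scales in LXR-DKO. Its normalised counts of 4705, 4777 and 5240.2 overlapped WT, with a log2 difference of -0.08 (SE 0.06). Its TPM of 126.0, 126 and 141 lay below the WT values of 160.2, 164 and 167, with a log2 difference of -0.32 (SE 0.07, limma adjusted p = 0.122). The sources used here do not name the tool behind each table. Ppargc1a was at 1099, 1025 and 1449.9 normalised counts in LXR-DKO, so the third library reached the Macrophage-depleted range while the others were below WT. Its SD of 227 was the widest of the 4 groups.

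Of the 3 direct comparisons between perturbed groups, that of Macrophage-depleted with Mertk-KO hearts called the most genes. There 4 of the 10 genes passed, against 21.0% of all genes tested: Ppargc1a, Ppargc1b and Dnm1l were higher and Fis1 was lower in Macrophage-depleted hearts, as were 11.6% and 9.39% of all genes. At an unadjusted p under 0.05 there were 5 of the 10 genes and 36.2% of all genes. This comparison shares its libraries with those against WT and is no independent support for them. Ppargc1a, at 1447, 1406 and 1493 normalised counts against 964 and 1068, differed by 0.51 (SE 0.13, limma adjusted p = 0.0183), and was past the threshold in 18 of 23 alternatives. It was not past it without the third Macrophage-depleted library (limma adjusted p = 0.0518) or the first Mertk-KO library (limma adjusted p = 0.0622), and the range over the alternatives was 0.00508 to 0.176.

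Ppargc1b differed by 0.74 (SE 0.21, limma adjusted p = 0.0315), and lost the call without any single Macrophage-depleted library (limma adjusted p = 0.0827, 0.0551 and 0.0645) or without the second Mertk-KO library (0.34, limma adjusted p = 0.217). Dnm1l differed by 0.47 (SE 0.15, limma adjusted p = 0.0424). It kept the call in 3 of the 11 fits that left out a library, and without the first Mertk-KO library it was at 0.16 (limma adjusted p = 0.344). Fis1 differed by -0.42 (SE 0.11, limma adjusted p = 0.0246), and lost the call without the second library of either group (limma adjusted p = 0.0764 and 0.0649). Markers differed between these groups as well: 10 of 12 macrophage markers, 3 of 5 tested adipocyte markers, 2 of 7 endothelial markers and 6 of 10 immediate early genes passed, all lower in Macrophage-depleted hearts. Summed, they were at 729 to 2125 against 3518 and 4869, 23.1 to 38.4 against 89.4 and 149.8, 10442 to 11246 against 12437 and 13361, and 2079 to 3337 against 5744 and 6790 normalised counts. Of other lists, the 2 tested skeletal muscle markers and 1 of 8 cardiomyocyte markers also passed as lower in Macrophage-depleted hearts. In the other direction, 1 of 7 fibroblast markers passed as higher. The part of all these markers in the values of the 4 genes was not tested. With the length trend removed none of the 4 passed, at 0.26 for Ppargc1a, 0.71 for Ppargc1b, 0.42 for Dnm1l and -0.15 for Fis1.

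No gene of the 10 passed between Macrophage-depleted and LXR-DKO hearts, where 3.24% of all genes did. An unadjusted p under 0.05 was found for 3 of the 10 genes and 20.5% of all genes. The nearest were Fis1 at -0.34 (limma adjusted p = 0.0884), Opa1 at 0.31 (limma adjusted p = 0.0995) and Ppargc1a at 0.30 (limma adjusted p = 0.166). Without the third LXR-DKO library, Opa1 was at 0.43 (limma adjusted p = 0.0165) and Ppargc1a at 0.45 (limma adjusted p = 0.0178). Without either Mertk-KO library, which enters only through the shared spread, Opa1 and Fis1 had limma adjusted p-values of 0.0482 to 0.0499. Over all alternatives the limma adjusted p of Opa1 ran from 0.00822 to 0.349, that of Fis1 from 0.0284 to 0.317 and that of Ppargc1a from 0.0178 to 0.497. Between Mertk-KO and LXR-DKO none of the 10 passed, against 2.46% of all genes, and 2 had an unadjusted p under 0.05, against 20.9%. The 2 were Ppargc1b at -0.52 (limma adjusted p = 0.191) and Dnm1l at -0.38 (limma adjusted p = 0.166). Without the first Mertk-KO library Ppargc1b was at -0.93 (limma adjusted p = 0.0178), and without the second Dnm1l was at -0.70 (limma adjusted p = 0.00118) and Mfn2 at 0.33 (limma adjusted p = 0.0407). The highest limma adjusted p over the alternatives was 0.733, 0.775 and 0.951 for these 3 genes.

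The wider pathway was followed in 86 other genes, grouped as partners and transcription factors of the coactivators, inputs to PGC-1, upkeep of mitochondrial DNA, fission partners, fusion genes with inner membrane proteases, and MICOS, the complex that forms cristae junctions. Of these, 83 were tested. Against WT none of the 83 passed in Macrophage-depleted hearts and none in LXR-DKO hearts (limma). An unadjusted p under 0.05 was found for 7 of the 83 in the first, against 7.53% of all genes. In LXR-DKO hearts it was found for 11, against 11.5% of all genes. In Mertk-KO hearts 3 rose and 8 fell, against 3.38% and 5.89% of all genes. There 35 of the 83 had an unadjusted p under 0.05, against 28.6% of all genes.

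Of the 15 partners and transcription factors, 3 fell in Mertk-KO and 10 had lower estimates, with a median log2 difference of -0.12 against -0.01 over all genes. Gabpa, which encodes the DNA-binding subunit of GABP, was at 876, 887 and 908 normalised counts in WT and at 432 and 719.7 in Mertk-KO (log2 difference -0.67, SE 0.17, limma adjusted p = 0.0337). Both Mertk-KO libraries were below all others, the first by far. Creb1, which encodes a cyclic AMP responsive factor that activates Ppargc1a, fell by 0.71 on the log2 scale (limma adjusted p = 0.0205). Nrip1, a corepressor that acts against PGC-1 targets, fell by 0.82 (limma adjusted p = 0.0120), so that the genes that fell included an activator and a repressor of this programme.

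Among 17 inputs to PGC-1, 2 fell: Prkaa2, the catalytic AMP-activated kinase subunit of muscle (log2 difference -0.61, limma adjusted p = 0.0347), and Gsk3b, a kinase (-0.40, limma adjusted p = 0.0379). One WT library stood apart for Prkaa2, at 3705 normalised counts against 2637 and 2572.5 in the others. Of 18 genes of mitochondrial DNA upkeep, 2 fell. Mgme1, a nuclease that trims mitochondrial DNA, was at 219, 205 and 201 normalised counts in WT. The Macrophage-depleted libraries were below all of these as well, at 183, 126 and 131, without passing the test. Those of LXR-DKO were above them, at 224, 240 and 280. In Mertk-KO hearts Mgme1 was at 112 and 95.9, so that both Mertk-KO libraries were below the lowest WT library. Its log2 difference was -1.0 (SE 0.17, limma adjusted p = 0.0120), and it passed in 21 of 23 alternatives, including the one with the length trend removed (-1.05, limma adjusted p = 0.0188). The cause of the Mgme1 difference was not tested, and the position of Mgme1 relative to the targeted genes was not examined. Rrm2b, a subunit of the ribonucleotide reductase that supplies nucleotides for mitochondrial DNA, fell by 0.69 (limma adjusted p = 0.0222).

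Of 15 fusion and protease genes 1 rose and 1 fell in Mertk-KO, and 13 had higher estimates, against 48.3% of all genes, with a median log2 difference of 0.22 against -0.01 over all genes. Phb, an inner membrane scaffold that keeps Opa1 processing in check, rose by 0.37 (limma adjusted p = 0.0326), and Yme1l1, a protease that cleaves Opa1, fell by 0.51 (limma adjusted p = 0.0426). Of 8 MICOS genes 1 rose, Micos13 by 0.41 (limma adjusted p = 0.0476), and all 8 had higher estimates, with a median of 0.23. Of 10 tested fission partners, Mtfr1l rose by 0.26 (limma adjusted p = 0.0426). In Macrophage-depleted hearts none of the 8 MICOS genes passed and all had lower estimates, where 50.8% of all genes had higher ones, with a median of -0.08, and these 2 comparisons share the WT libraries.

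With the length trend removed, Mgme1 was the only one of the 11 called genes that still passed in Mertk-KO hearts. Gsk3b was then at -0.08 (limma adjusted p = 0.673) and Micos13 at 0.16 (limma adjusted p = 0.297). Leaving out the first Mertk-KO library moved Gabpa to -0.31 (limma adjusted p = 0.120), Gsk3b to -0.29 (0.129), Yme1l1 to -0.19 (0.162), Rrm2b to -0.40 (0.0567), Phb to 0.30 (0.0889) and Mtfr1l to 0.24 (0.0843). Leaving out the second moved Prkaa2 to -0.50 (limma adjusted p = 0.0855) and Micos13 to 0.33 (0.118).

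**Figure D5:**
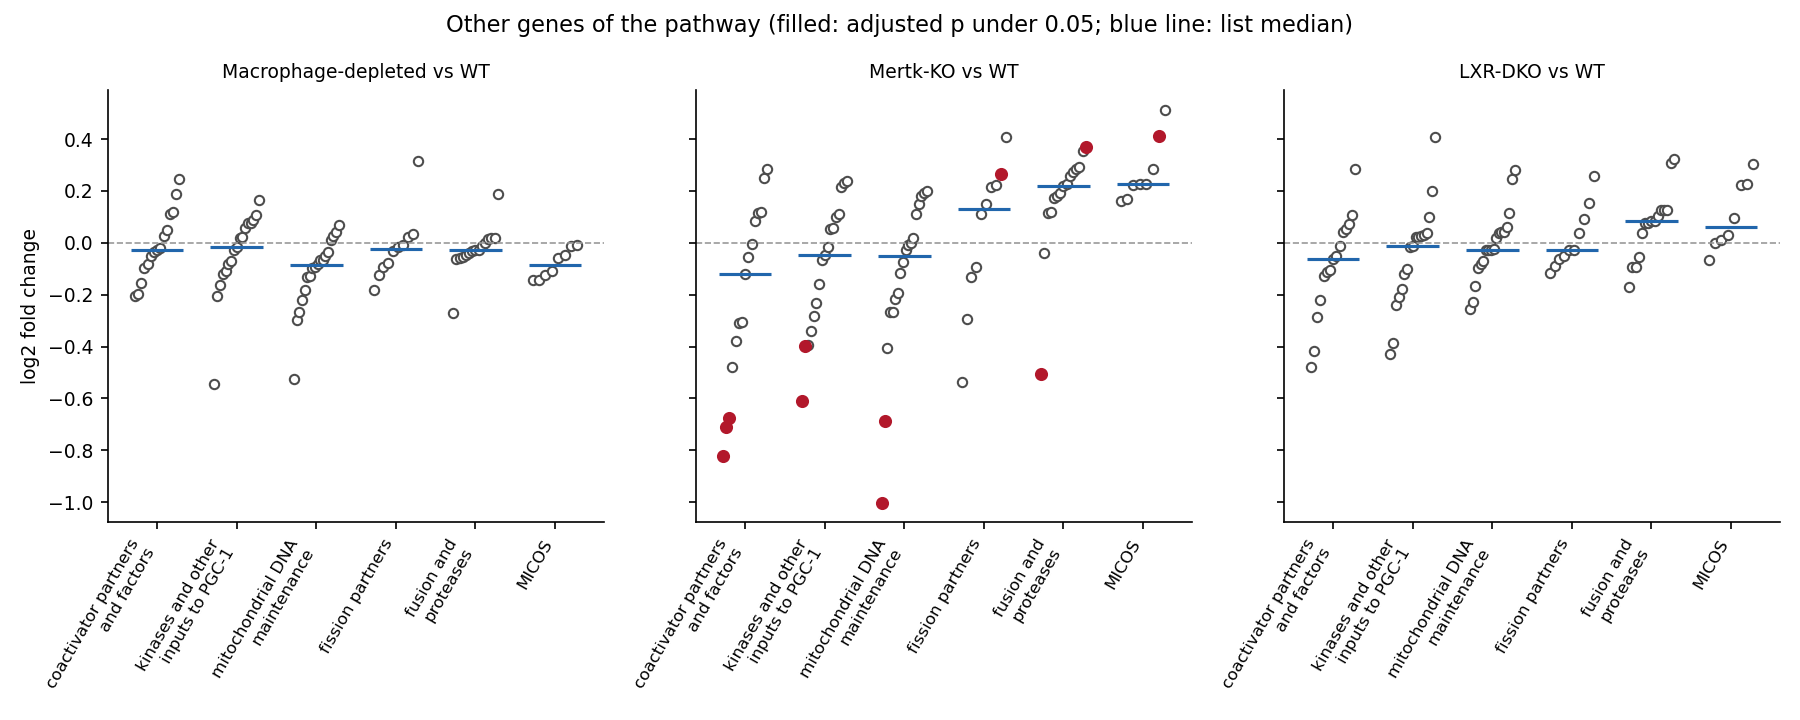
Log2 fold change against WT of 83 other genes of the pathway (circles, filled red where the adjusted p was under 0.05) in 6 lists, with each list's median as a blue line, for the 3 perturbed groups. No circle is filled in the Macrophage-depleted and LXR-DKO panels, and in Mertk-KO 8 filled circles lie under 0 and 3 above.

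The genes whose log values followed the called genes most closely over the 11 libraries are given as a description, since the libraries share their group, their depth and the length trend. For Ppargc1a these were Hipk3 (Pearson r = 0.956), Crebrf (0.953) and Tbx18 (0.944). For Ppargc1b they were 4930402H24Rik (0.957), Sik2 (0.956) and Klf12 (0.938). Dnm1l was closest to Trdn (0.991), which encodes triadin of the muscle calcium release complex, Arid4b (0.980) and Capn7 (0.975). Fis1 was closest to Ndufa11 (0.990), a subunit of respiratory complex I, Tsen34 (0.985) and Mrps28 (0.984), a protein of the mitochondrial ribosome. Among the 10 genes themselves, Ppargc1a had r = 0.744 with Opa1, 0.745 with Dnm1l and -0.718 with Fis1, but 0.277 with Tfam and -0.177 with Nrf1.

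Annotated genes overlap 6 of the 10 genes on the genome: 4 overlap Ppargc1a, 2 each overlap Ppargc1b and Mff, and 1 each overlaps Nrf1, Mfn2 and Dnm1l. The sources used here do not state whether counting used strand, so reads could be shared, and 7 of the 11 overlapping genes had means of at most 8.48 normalised counts. No value was at hand for the other 4, which include both overlaps of Ppargc1b and the only ones of Mfn2 and Dnm1l. Tfam, Mfn1, Opa1 and Fis1 have no annotated overlap.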

How the data were processed

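PolyA RNA of whole hearts was extracted with Trizol, amplified with the Ovation Single Cell kit and sequenced on Illumina libraries, per the labels' protocols. RSEM 1.2.20, kallisto 0.43.1, cutadapt, CASAVA 1.8.2 and GRCm38 are listed in the submitters' processing notes, with no role for each. The authors deposited 2 tables of normalised signal: normalised counts, which by their values are reads scaled to each library's effective size after adding 0.5 to each gene, and normalised TPM. Here that 0.5 was removed to recover estimated reads, which were rescaled to the mean effective size. Between 57.2% and 61.5% of low values came out whole within 0.01 read, so no count model was run. This scaling follows the rule planned for deposited values that prove not to be counts.

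limma 3.58.1 (R 4.3.3; lmFit, contrasts, eBayes with a trend) was run on log2(normalised count + 1) with 4 groups in 1 model and 7 residual degrees of freedom, two-sided, with Benjamini-Hochberg adjustment over the 13884 genes with a mean of at least 10. Fold changes on this scale understate the change of low genes. The floor of 3 reads for a count of 0 covers counting error only. Groups came from the labels; 23 alternatives were tried, 1 of them (deposited values without a pseudocount) chosen after seeing the data. The code was tested on simulated data. Length trends were lowess fits (span 0.3) against the longest transcript of GENCODE M21.

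All 10 genes were named. From each pathway list the rule took up to 3 genes past the threshold per comparison with WT, by smallest p, and for Ppargc1a and each called gene the 3 genes of highest Pearson correlation. The genes and lists were chosen with earlier results of these data known.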

Additional observations from a re-analysis of the deposited data

How the results depend on the processing

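Over 23 alternatives, none of the 1380 fold changes of the 10 genes in the 6 comparisons reversed a called direction, 52 lost a call and 19 gained one, and 58 values that passed in neither fit changed sign, with sizes of up to 0.303 on the log2 scale. Genes called are given below for all genes tested. The TPM table called 4 (Macrophage-depleted against WT), 378 (Mertk-KO against WT), 1577 (Macrophage-depleted against Mertk-KO), 218 (Macrophage-depleted against LXR-DKO) and 66 (Mertk-KO against LXR-DKO), where the chosen fit called 33, 1287, 2911, 450 and 341, and of the 10 genes it called 0 in Mertk-KO against WT and 2 in Macrophage-depleted against Mertk-KO. With no minimum level the counts were 17, 597, 278 and 150 for these comparisons, leaving out Macrophage-depleted against Mertk-KO, and 0 and 2 of the 10 genes. A minimum of 50 called 2 of the 10 genes in Mertk-KO against WT, and quantile or median-of-ratios scaling called 0. Fits of only the groups compared called 66, 1, 146 and 20 for these comparisons, leaving out Macrophage-depleted against LXR-DKO, and 124 for LXR-DKO against WT (58 in the chosen fit), and 0 of the 10 genes in Mertk-KO against WT and in Macrophage-depleted against Mertk-KO.

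Weights per library called 219, 12, 438, 2043 and 19 in the same order of 5 and 593 for LXR-DKO against WT; of the 10 genes they called 0 in Mertk-KO against WT, 1 in LXR-DKO against WT, 0 in Macrophage-depleted against Mertk-KO and 3 in Macrophage-depleted against LXR-DKO. With the length trend removed, 155, 1455 and 195 genes were called in Mertk-KO against WT, Macrophage-depleted against Mertk-KO and Mertk-KO against LXR-DKO, and 0 of the 10 genes in the first and second. The cause of these changes was not tested.

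The replicate numbers tie no libraries together in the labels, and same-numbered libraries correlated at -0.0937 to 0.107 in their deviations. With the replicate number as a block, 22, 391, 53, 2036, 313 and 119 genes were called (Macrophage-depleted, Mertk-KO and LXR-DKO against WT, then Macrophage-depleted against Mertk-KO and LXR-DKO, then Mertk-KO against LXR-DKO), and 0, 0, 0, 2, 0 and 0 of the 10 genes. Leaving out 1 library at a time gave 3 to 84, 70 to 2399, 31 to 118, 1378 to 3237, 135 to 1229 and 72 to 2168 genes in that order, and 0 to 0, 0 to 1, 0 to 0, 1 to 4, 0 to 2 and 0 to 2 of the 10 genes. Without a Mertk-KO library the lone remaining one is assumed to vary like the other groups. Groups of 2 or 3 libraries limit the precision. Of the 10 genes the lowest single value was 124 normalised counts (Nrf1), well above the floor of 3 reads.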
